A study of Drosophila melanogaster with 6 samples.

Results

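The genes that encode the proteins of the cytosolic ribosome were examined in fat body cells of adult *Drosophila melanogaster* females. They were taken as the protein-coding genes whose symbol starts with RpL, RpS or RpLP followed by a digit, with *sta*, *sop* and *oho23B* added under their own names, and mitochondrial ribosomal protein genes (symbols starting with mRp) were left out. This gave 93 of the 17558 genes listed, which are called RP genes below. By symbol, they comprise 39 genes for small subunit proteins, 50 for large subunit proteins and 4 grouped with the stalk (*RpLP0*, *RpLP0-like*, *RpLP1* and *RpLP2*). Of the 3 names added, only *sta* occurs in the files, since *sop* and *oho23B* are listed as *RpS2* and *RpS21*. The genes lie on every major chromosome arm, with 19 on 2L, 21 on 2R, 14 on 3L, 23 on 3R and 15 on X, and *RpS3A* lies on chromosome 4.

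The ribosome reads messenger RNA and joins amino acids into protein. Each subunit holds a set of proteins bound to ribosomal RNA, in which the small subunit decodes the message, the large subunit forms the peptide bond, and the stalk on the large subunit binds the factors that drive translation. RP genes are transcribed strongly in nearly all cells, and loss of a single copy of many of them in *Drosophila* gives the Minute phenotype of slow development and short, thin bristles. The adult fat body combines functions of liver and adipose tissue and secretes yolk proteins and other blood proteins, which requires abundant translation.

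The data are 3 libraries of *svp* RNAi and 3 libraries of *Luc* control RNAi. Females of both groups carried *y w*, the oenocyte driver *PromE800-Gal4*, the adipocyte driver *3.1Lsp2-Gal4*, *tubGal80ts* and a UAS-hairpin, against *svp* in one group and against *Luc*, which encodes firefly luciferase, in the other. In the sample labels the controls are called wild type. Flies were reared at 18 °C, and females collected at 0 to 2 days of age were kept there with *y w* males for another 3 days, per the study's methods, before the hairpins were induced for 5 days at 29 °C. Each library came from fat body cells released by enzyme digestion from pooled abdominal carcasses (100 females of each genotype). In such a bulk sample, fewer cells of a type and less RNA per cell cannot be told apart. The *svp* transcript itself, the target of the hairpin, was counted 1480, 1214 and 1421 times with the *svp* RNAi label, against 678, 1141 and 1168 times with *Luc* control RNAi. These counts were not lower in the libraries labelled *svp* RNAi, but they are not scaled for library total or composition. The extent of knockdown was not tested here. The RT-qPCR of *svp* made in the study was not analysed here. Each direction below is a difference between labelled groups.

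Library totals lay between 15648948 and 19476599 counted fragments. Fat body genes were abundant in every library: the 16 fat body markers found among 17 listed summed to 153642 to 172655 CPM (counts relative to the library total, on a common scale) in the libraries labelled *svp* RNAi and to 89361 to 153291 CPM in the controls. The libraries also held transcripts of other cells. The summed level of 31 germline and ovary genes was highest in *Luc* control RNAi replicate 1 (7432 CPM). It was next highest in *svp* RNAi replicate 1 (6211 CPM), and lay between 1534 and 3213 CPM in the others. *Luc* control RNAi replicate 1 also had the highest summed level of 23 midgut genes (3520 CPM, against 379 to 1673 in the others). Its scaling factor by edgeR's TMM method, which corrects library totals for differences in composition, was also the highest, at 1.39, against 0.824 to 1.13 in the other libraries. The highest summed level of 20 muscle genes was in *Luc* control RNAi replicate 2 (2164 CPM, against 798 to 1035 in the others). Whether these features affect the scaling of RP genes was not tested. Levels of RP genes are given below on 3 scales.

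RP genes were among the most abundant transcripts of the fat body. Levels were compared between genes as FPKM, which is the count of fragments scaled by gene length and by library total. Counts of 85 RP genes (35 small subunit, 46 large subunit and 4 stalk genes) passed edgeR's filter on low counts, as did 9277 genes in all. Mean FPKM over the 6 libraries had a median of 1405 over these 85 RP genes, whereas the median over all protein-coding genes tested was 12.3. Of the 85 genes, 63 were among the 100 most abundant protein-coding genes and 78 among the top 200. Mean FPKM fell between 1000 and 2000 for 59 genes, above 2000 for 13 and under 1000 for 13. Median levels were 1364 FPKM for small subunit genes, 1432 FPKM for large subunit genes and 1808 FPKM for the 4 genes grouped with the stalk. The last median includes *RpLP0-like*, at 32.3 FPKM.

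*RpL41* (FBgn0066084; chromosome 2R from 24903416 to 24903935), which encodes a very short basic peptide of the large subunit, was the most abundant RP gene and ranked number 12 among protein-coding genes. It had 5697, 5423 and 6381 FPKM in the libraries labelled *svp* RNAi, against 5247, 4827 and 4452 FPKM in the *Luc* control RNAi libraries. The next was *RpL39* (FBgn0023170; chromosome 2R from 24061853 to 24062431), a small protein near the exit of the tunnel through which the new peptide leaves, with 3704 ± 743 FPKM in libraries labelled *svp* RNAi and 2940 ± 255 FPKM in controls (SD, n = 3 each). *RpL41* was above *RpL39* in each of the 6 libraries. *RpS27A* (FBgn0003942; chromosome 2L from 10408352 to 10410456), which is made as a fusion with ubiquitin, had 3210 ± 206 FPKM with the *svp* RNAi label and 2532 ± 185 FPKM in controls. *RpL23*, a large subunit protein, had 2641 ± 238 FPKM with the *svp* RNAi label and 2259 ± 167 FPKM in controls, and was below *RpS27A* in each of the 6 libraries. For such short transcripts as *RpL41* and *RpL39* the value per length depends strongly on the length used.

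Other well-studied RP genes had levels nearer the median. *RpL40*, which is also made as a ubiquitin fusion, had 1538 ± 142 FPKM in libraries labelled *svp* RNAi and 1273 ± 18.5 FPKM in controls. *RpS6*, whose protein is phosphorylated by S6 kinase downstream of TOR, had 1430 ± 114 FPKM with the *svp* RNAi label and 1149 ± 80.4 FPKM in controls. *sta*, which encodes the laminin receptor homolog RpSA of the small subunit, had 1947 ± 129 FPKM with the *svp* RNAi label and 1661 ± 86.8 FPKM in controls. The stalk genes *RpLP1* and *RpLP2* had 2510 ± 105 and 2401 ± 342 FPKM with the *svp* RNAi label, against 2115 ± 111 and 1945 ± 335 FPKM in controls. *RpLP0*, which anchors them to the ribosome, was lower than both in every library (1588 ± 59.5 FPKM with the *svp* RNAi label, 1297 ± 94.3 FPKM in controls).

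At the low end, 7 tested genes had a mean under 500 FPKM. They included *RpS15Ab* (29.0 FPKM), *RpLP0-like* (32.3), *RpL24-like* (181), *RpL34a* (281), *RpS14b* (367) and *RpS9* (416). Apart from *RpS9*, each of these has a partner gene of higher level within the RP genes. *RpLP0-like* and *RpL24-like* resemble factors that in budding yeast assemble the large subunit rather than stay in it. In the BDGP6 annotation used here, 29 RP genes share exon bases with another gene. *RpL22*, for instance, shares 34.3% with a noncoding gene on the same strand, *CR42491*, where reads may go uncounted. *RpS9* (FBgn0010408; chromosome 3L from 9509793 to 9511531) shares 50.3% of its exon bases with a noncoding gene on the other strand, *CR45874*, which had at most 1 count, and reads in such an overlap may go uncounted, since the strand setting of the counting is not given in the sources used here.

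**Figure D1:**
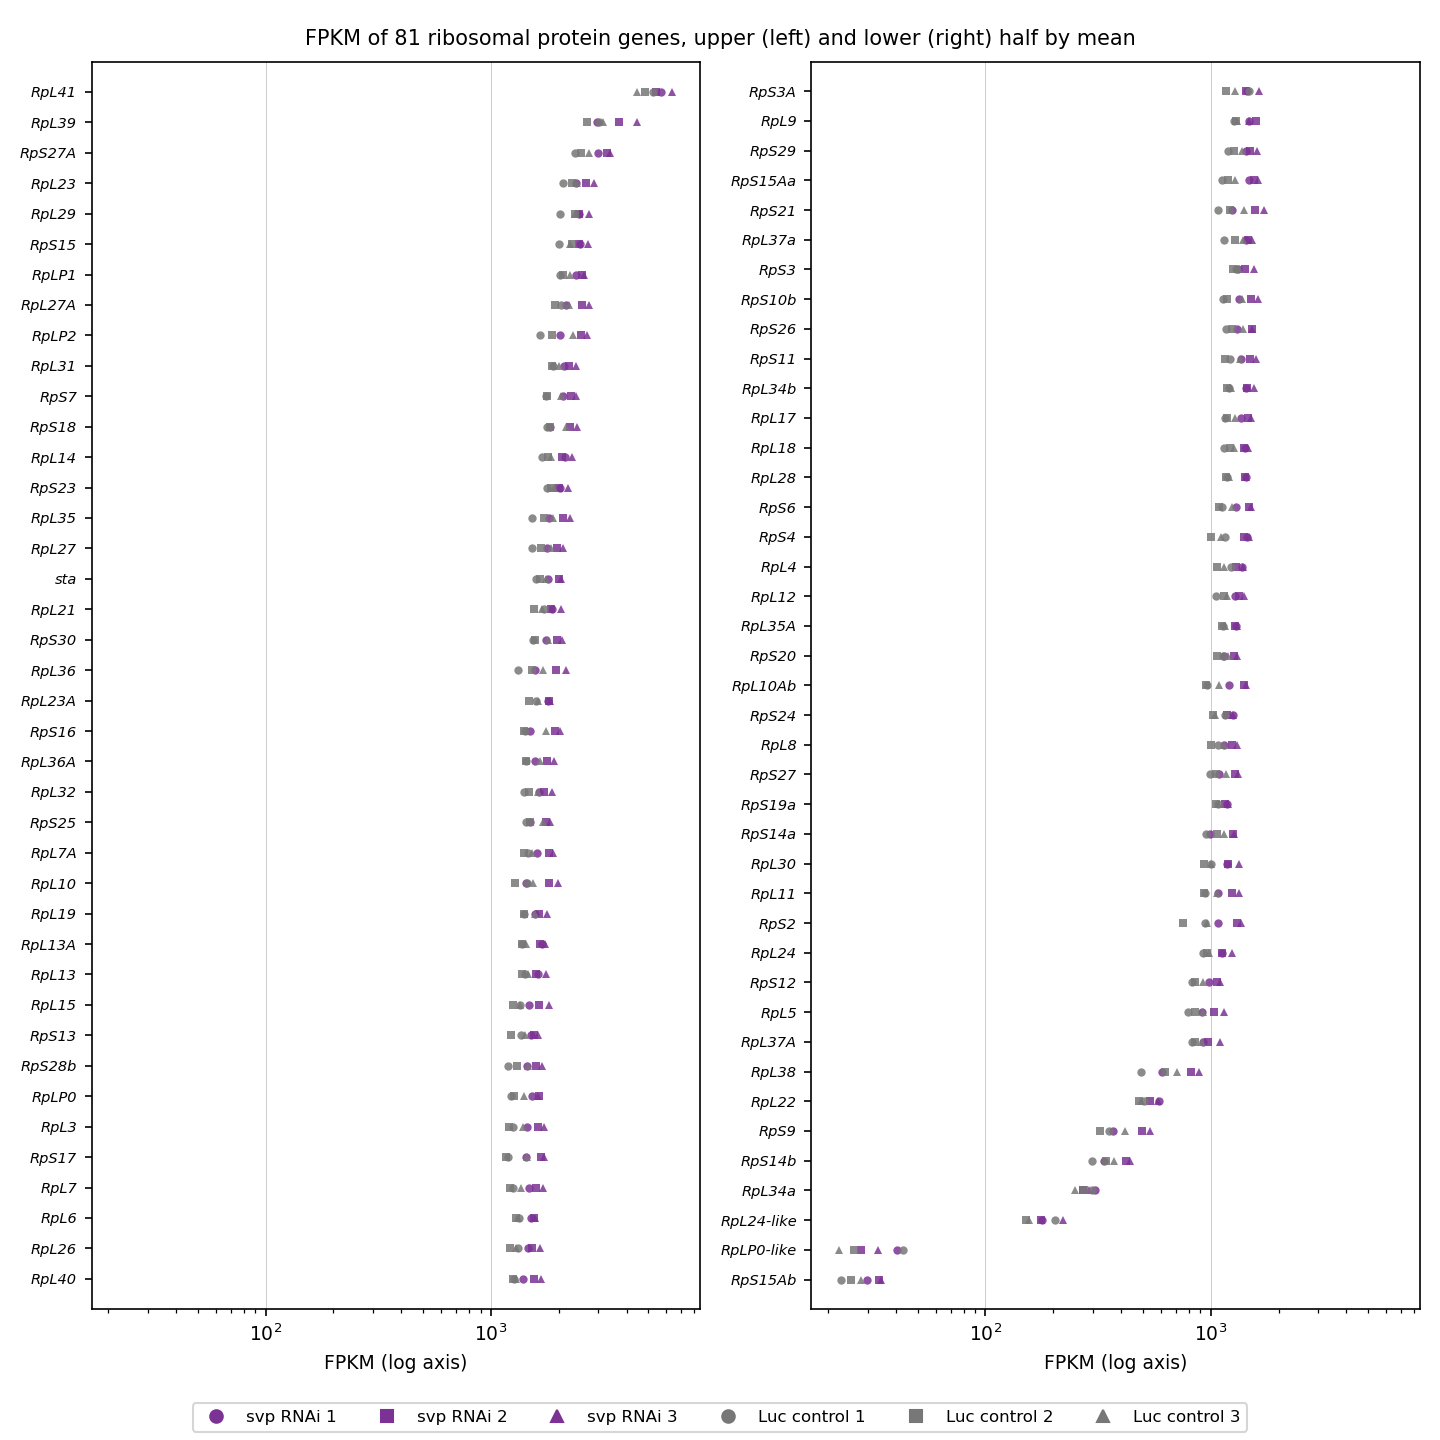
FPKM (log axis) of 81 of the 85 RP genes tested, with 1 row per gene ordered by mean FPKM, the more abundant genes on the left and the less abundant on the right. Purple points are the 3 libraries labelled *svp* RNAi and gray points the 3 *Luc* control RNAi libraries, with 1 shape per replicate number. Most genes lie between 1000 and 2000 FPKM with purple points to the right of gray ones, and *RpL41* lies highest, at 4452 to 6381 FPKM.

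Another 8 RP genes had too few counts to test. *RpL10Aa*, *RpL22-like*, *RpL7-like* and *RpS28-like* had 0 counts in every library. *RpL7-like* shares 98.8% of its exon bases with a protein-coding gene on the same strand, *CG34164*, which also had 0 counts. Reads in this overlap may go uncounted, so the 0 for *RpL7-like* does not show that it was silent. *RpS28a* had 1 count, in *Luc* control RNAi replicate 3. *RpL37b* had 0, 5 and 2 counts in libraries labelled *svp* RNAi, against 2, 0 and 0 in controls, and *RpS10a* had 4, 10 and 0 with the *svp* RNAi label, against 19, 0 and 4 in controls. *RpS19b*, known for expression in the germline, had 9, 7 and 7 counts in libraries labelled *svp* RNAi, against 3, 6 and 2 in controls. All 8 have a partner that was abundant: *RpL10Ab*, *RpL22*, *RpL7*, *RpS28b*, *RpL37a*, *RpS10b* and *RpS19a* had between 481 and 1704 FPKM in every library. Fragments shared by near-identical copies may have been assigned to either copy or dropped, and the handling of such reads is not given in the sources used here.

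RP genes held a larger share of all counts in each library labelled *svp* RNAi than in any control. The share was 9.44%, 10.2% and 10.8% in the libraries labelled *svp* RNAi, against 8.25%, 8.23% and 9.03% in the *Luc* control RNAi libraries. The groups did not overlap, and the means differed by 1.65 percentage points (10.2 ± 0.699% with the *svp* RNAi label and 8.50 ± 0.457% in controls; SD, n = 3 each; two-sided exact permutation p = 0.1, which is the lowest value possible with 3 libraries in each group). Transcripts of the mitochondrial genome took 10.5%, 14.8% and 13.5% of counts in libraries labelled *svp* RNAi, against 14.1%, 25.5% and 19.7% in controls. As a share of counts on nuclear protein-coding genes alone, RP genes held 10.6%, 12.0% and 12.6% with the *svp* RNAi label, against 9.63%, 11.1% and 11.3% in controls. On this denominator the groups overlapped (difference 1.05 percentage points, exact two-sided permutation test, p = 0.3). Small subunit genes held between 39.3% and 40.3% of the RP counts in all 6 libraries.

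**Figure D2:**
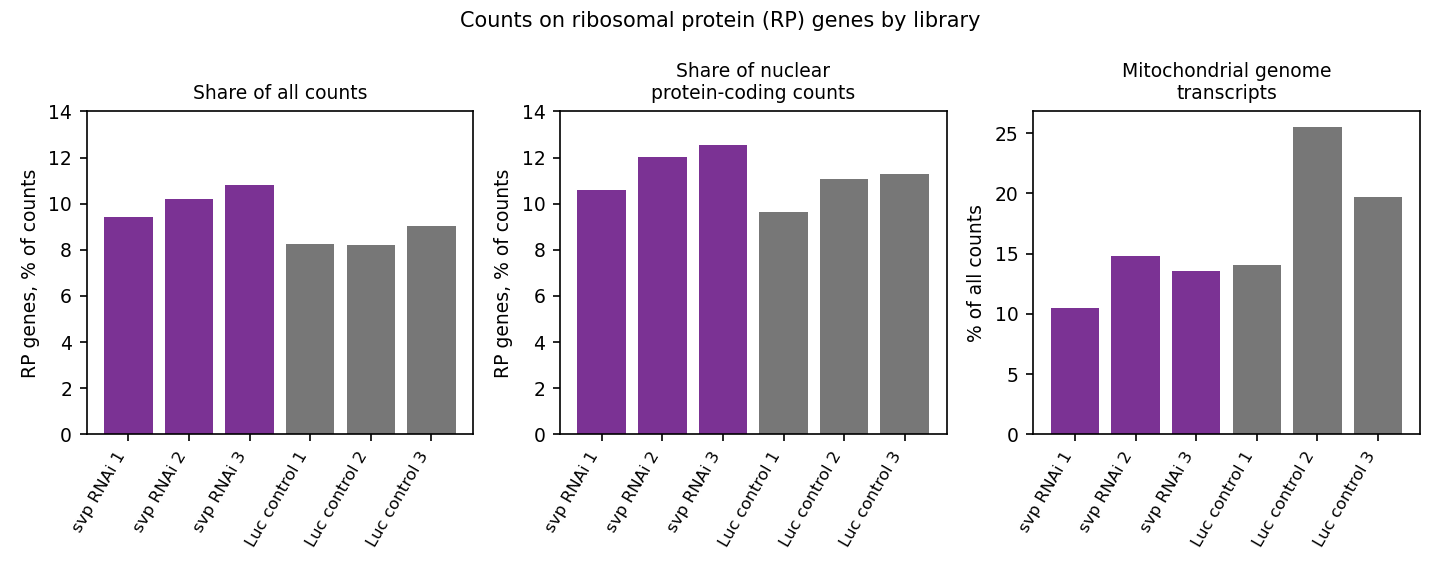
RP gene counts as a percentage of all counts (left) and of counts on nuclear protein-coding genes (middle), and mitochondrial genome transcripts as a percentage of all counts (right), with 1 bar per library (purple, *svp* RNAi label; gray, *Luc* control RNAi). The purple bars are all above the gray bars on the left (9.44% to 10.8% against 8.25% to 9.03%), whereas the groups overlap in the middle panel.

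No RP gene changed significantly between the groups. By edgeR's quasi-likelihood test with p-values adjusted over the whole table (Benjamini-Hochberg), 0 of 85 RP genes had an adjusted p under 0.05 (adjusted p = 1.00 for each), where the share called over all genes was 0.097%. DESeq2 called 0 of 85, where it called 1.56% of the genes tested, and 0 of 85 had an unadjusted edgeR p under 0.05, where 4.99% of all genes did. The fitted log2 fold changes (*svp* RNAi label over *Luc* control RNAi) were nevertheless above 0 for all 85 genes, whereas 40.9% of all genes tested had a fold change above 0. They ranged from 0.02 to 0.44, with a median of 0.16, beside a median of -0.06 over all genes tested. The standard error (SE) of a single gene's log2 fold change had a median of 0.32. The median was 0.16 for small subunit genes, 0.17 for large subunit genes and 0.19 for stalk genes. By chromosome arm the medians lay between 0.14 and 0.21, and *RpS3A* on chromosome 4 had 0.15.

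With TMM scaling, this shared direction depended on 1 library. Without *Luc* control RNAi replicate 1, the median log2 fold change of the RP genes was -0.02, beside 0.05 over all genes tested, with 33 genes above 0 and 52 below. Without *svp* RNAi replicate 2 the median was 0.08, with 76 genes above 0, and without any 1 of the other libraries it lay between 0.16 and 0.34. In CPM on totals scaled by TMM (TMM-scaled CPM), the lowest value of 83 of the 85 genes was in *Luc* control RNAi replicate 1. With library totals used directly, without TMM factors, the median was 0.25, with 84 genes above 0 and 17 at an unadjusted p under 0.05, where 6.44% of all genes were, but 0 RP genes had an adjusted p under 0.05. The 31 germline and ovary genes, none of which was at 0 in all libraries, summed to 6211, 2204 and 3213 CPM in libraries labelled *svp* RNAi, against 7432, 1534 and 1845 CPM in controls, with the highest value in the same library. The part of germline, midgut and muscle transcripts in this difference was not tested.

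**Figure D3:**
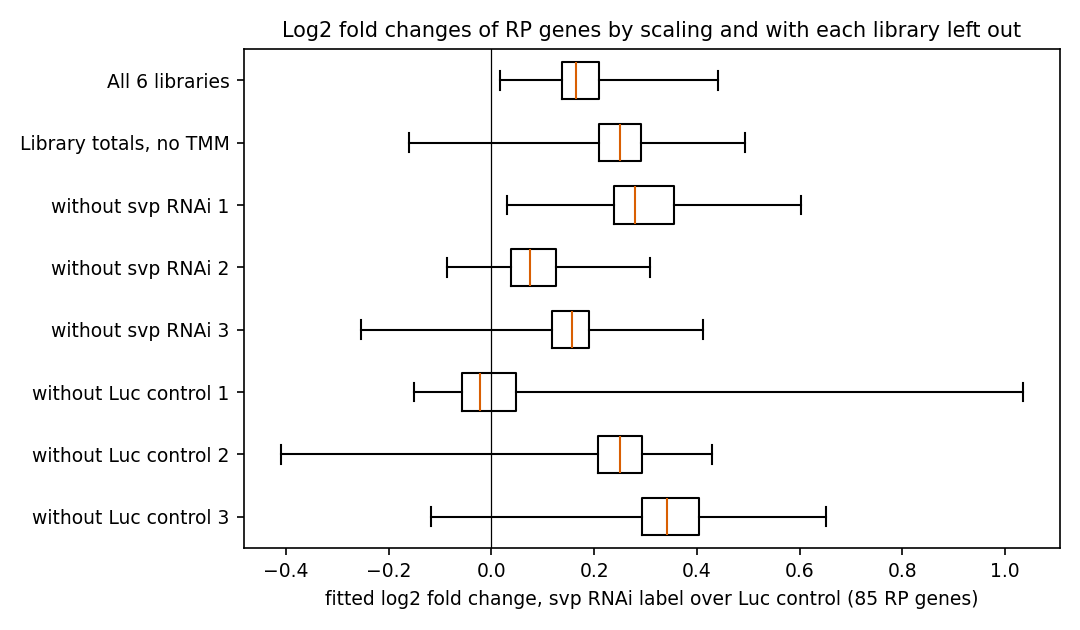
Fitted log2 fold changes (*svp* RNAi label over *Luc* control RNAi) of the 85 RP genes with all 6 libraries, with library totals in place of TMM, and with each library left out. Boxes span the quartiles of the genes, the line is the median and whiskers reach the lowest and highest gene. The median is 0.16 with all libraries and -0.02 without *Luc* control RNAi replicate 1.

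How many RP genes separated the groups depended on the scale. In FPKM, 53 of 85 RP genes were higher in every library labelled *svp* RNAi than in every control, where 7.73% of all genes tested were, and 0 were lower, where 4.37% were. The mean FPKM was higher with the *svp* RNAi label for 84 of the 85, and the highest value was in *svp* RNAi replicate 3 for 76 of them. Without *Luc* control RNAi replicate 1, 56 were higher in FPKM, where 28.7% of all genes were. In counts relative to the total on nuclear protein-coding genes, 9 RP genes were higher without overlap, where 4.61% of all genes were, and 0 were lower, where 6.5% were. In TMM-scaled CPM the number was 1, where 4.51% of all genes were higher, and 0 were lower, where 4.82% were. Without *svp* RNAi replicate 1, the numbers higher were 80 in FPKM, 66 on nuclear protein-coding counts and 18 in TMM-scaled CPM, where 9.8%, 7.1% and 7.37% of all genes were. On nuclear protein-coding counts the number was 17 without *Luc* control RNAi replicate 2 and 15 without *Luc* control RNAi replicate 3, where 9.26% and 6.2% of all genes were. In TMM-scaled CPM it was 3 without *Luc* control RNAi replicate 3, a share below the 7.94% of all genes. The single gene in TMM-scaled CPM with all libraries was *RpLP0-like* (FBgn0033485; chromosome 2R from 10098518 to 10099590), with 33.7, 29.8 and 30.8 CPM in libraries labelled *svp* RNAi, against 29.6, 29.7 and 25.8 CPM in controls. Its groups were separated by a very small gap, with a log2 fold change of 0.15 (SE 0.18, adjusted p = 1.00 by edgeR).

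The highest fitted fold changes included those of *RpS2*, *RpL10Ab*, *RpS4* and *RpS9*. *RpS2* (also called *string of pearls*; FBgn0004867; chromosome 2L from 9896265 to 9897552), a small subunit protein that lines the entrance for messenger RNA and whose mutation arrests oogenesis, had 1075, 1305 and 1359 FPKM in libraries labelled *svp* RNAi, against 942, 755 and 958 FPKM in controls. All 3 libraries with the *svp* RNAi label were above all controls. In TMM-scaled CPM its values were 961, 1481 and 1334 with the *svp* RNAi label, against 689, 914 and 1178 in controls, which overlap, and edgeR fitted a log2 fold change of 0.44 (SE 0.30, adjusted p = 1.00). *RpL10Ab* (FBgn0036213; chromosome 3L from 11822851 to 11824211), a large subunit protein, had 1351 ± 125 FPKM with the *svp* RNAi label and 1005 ± 75.1 FPKM in controls (SD, n = 3 each), with a log2 fold change of 0.35. *RpS4* had 1442, 1408 and 1477 FPKM with the *svp* RNAi label, against 1154, 1004 and 1114 FPKM in controls, with a log2 fold change of 0.34. *RpS9* had a log2 fold change of 0.28, and its groups overlapped in FPKM (369, 496 and 535 with the *svp* RNAi label, against 354, 323 and 418 in controls). Over the fits that left out 1 library, the log2 fold change was lowest without *Luc* control RNAi replicate 1 (*RpS2* 0.31, *RpL10Ab* 0.16, *RpS4* 0.20, *RpS9* 0.10) and highest without *Luc* control RNAi replicate 3 (*RpS2* 0.65, *RpL10Ab* 0.55, *RpS4* 0.49, *RpS9* 0.54). It was also 0.22 for *RpL10Ab* and 0.14 for *RpS9* without *svp* RNAi replicate 2, and 0.49 for *RpS9* without *svp* RNAi replicate 1.

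The lowest fitted fold changes included those of *RpL34a* (0.02), *RpS25* (0.06), *RpS20* (0.06) and *RpS19a* (0.06). *RpL34a* (FBgn0039406; chromosome 3R from 26058420 to 26059267) had 305, 272 and 289 FPKM in libraries labelled *svp* RNAi, against 297, 273 and 251 FPKM in controls, and the groups overlapped. *RpS19a* had 1179 ± 17.4 FPKM with the *svp* RNAi label and 1072 ± 11.8 FPKM in controls. *RpS25* had 1695 ± 179 FPKM with the *svp* RNAi label and 1539 ± 144 FPKM in controls, and *RpS20* had 1239 ± 81.3 FPKM with the label and 1133 ± 63.3 FPKM in controls. *RpL32* (also called *Rp49*; FBgn0002626; chromosome 3R from 30045229 to 30046161) served as the reference transcript for RT-qPCR in the study. It had 1638, 1720 and 1858 FPKM in libraries labelled *svp* RNAi, against 1395, 1482 and 1615 FPKM in controls. These groups did not overlap in FPKM, but in TMM-scaled CPM they did (938, 1251 and 1169 CPM with the *svp* RNAi label, against 653, 1150 and 1272 CPM in controls), and edgeR fitted a log2 fold change of 0.13 (SE 0.32, adjusted p = 1.00). It was -0.08 when *Luc* control RNAi replicate 1 was left out.

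Most RP genes kept nearly fixed proportions to each other. The SD of log2 FPKM over the 6 libraries had a median of 0.17 over the RP genes, against 0.48 over all genes tested. The genes compared were not matched for level: median FPKM was 1405 for RP genes and 12.3 for all protein-coding genes tested. The part of level in this gap was not tested. To remove the shared part, each gene was also expressed as the log2 ratio of its FPKM to that of the median RP gene of the same library. The SD of this ratio had a median of 0.07 over RP genes, against 0.53 over all genes tested, with the lowest value for *RpL17* (0.01). Some RP genes varied more, such as *RpLP0-like* (0.41). The RP genes set this scale themselves, so this spread is a description of how tightly they cluster. For 73 of the 85 genes the difference in this ratio between the groups was at most 0.1 in either direction.

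Within the set, about as few genes separated the groups as among all genes. Relative to the median RP gene, *RpS27A*, *RpS15Aa*, *RpS15Ab* and *RpL10Ab* were higher in all libraries labelled *svp* RNAi than in all controls (4 of 85, where 2.91% of all genes were). *RpS15Aa* and *RpS15Ab* are related copies with a log2 ratio of 5.52 to 5.62 over the libraries, and whether they share fragments was not tested. Another 7 genes were lower in all libraries labelled *svp* RNAi, among them *RpS20*, *RpS3*, *RpS25*, *RpL19*, *RpL8* and *RpL31* (7 of 85, a share below the 10.2% of all genes). *RpL10Ab* had log2 ratios of -0.26, -0.14 and -0.18 with the *svp* RNAi label, against -0.35, -0.37 and -0.32 in controls. *RpS20*, part of the head of the small subunit, had log2 ratios of -0.33, -0.30 and -0.31 with the *svp* RNAi label, against -0.12, -0.21 and -0.19 in controls, a difference of -0.14. *RpS3*, which lies at the entrance for messenger RNA and also acts in DNA repair, had log2 ratios of -0.13, -0.13 and -0.06 with the *svp* RNAi label, against 0.08, 0.03 and -0.03 in controls, a difference of -0.14. *RpS2* had the highest difference of all (0.22), but its groups overlapped, since its log2 ratio was -0.42 in *svp* RNAi replicate 1, against -0.38 in *Luc* control RNAi replicate 1. By the exact two-sided permutation test, no difference in this ratio can reach a p under 0.1 with 3 libraries per group. Any gene without overlap takes that value, so the p-value adds nothing for genes picked by non-overlap. In all, 85 genes were compared.

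**Figure D4:**
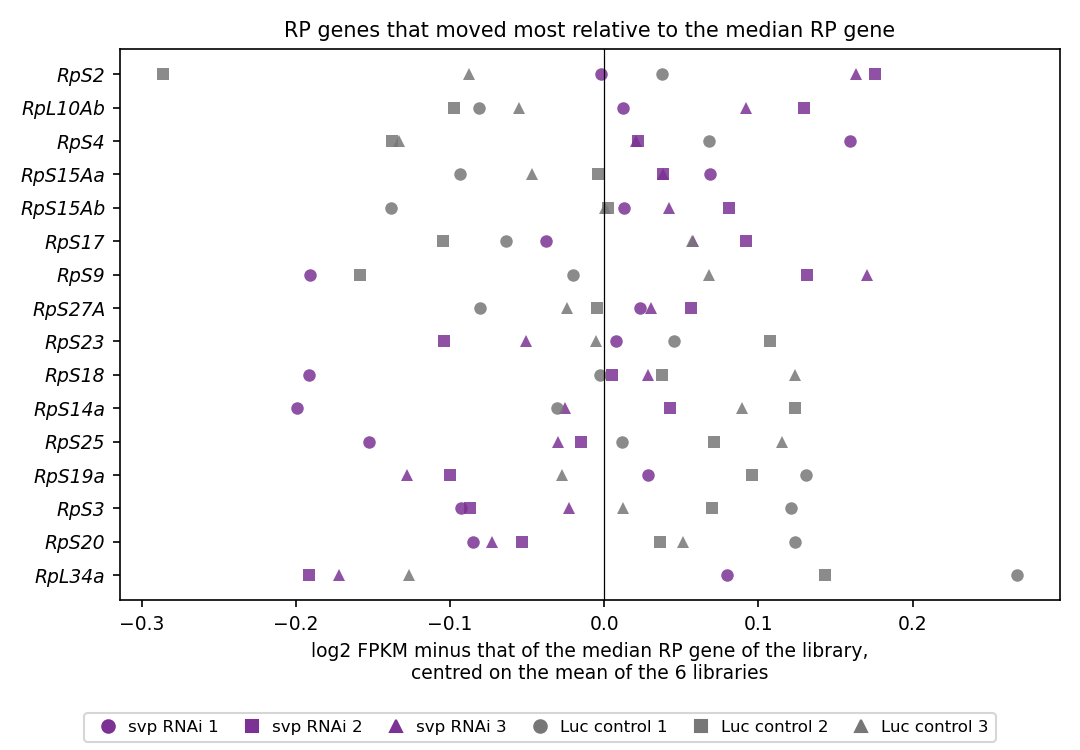
Log2 ratio of FPKM to the median RP gene of the same library, centered on the mean of the 6 libraries, for the 8 genes shown at each end of the range of group differences. Purple points are libraries labelled *svp* RNAi and gray points *Luc* control RNAi libraries. *RpS20* and *RpS3* have all purple points left of all gray points, and *RpL10Ab* has all purple points to the right.

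Several RP genes exist as paralog pairs, in which the copies encode the same or a related protein and can be used in different tissues. Of 14 pairs formed by symbol, 6 had both members tested, of which 5 are described, and 1 copy dominated in each of these. *RpS15Aa* supplied 97.9% to 98.0% of the summed FPKM of its pair in every library, and *RpS14a* supplied 74.3% to 76.2% over its tandem neighbor *RpS14b*. The proportion of *RpS14a* was lower in each library labelled *svp* RNAi: the log2 ratio of *RpS14a* to *RpS14b* was 1.57, 1.59 and 1.53, against 1.68, 1.63 and 1.63 in controls. The groups did not overlap, but the difference of -0.09 was small (exact two-sided permutation test, p = 0.1, adjusted p = 0.6 over the 6 pairs). With 3 libraries in each group this test cannot go below 0.1, so it could not call any pair. The log2 ratio of *RpL34a* to *RpL34b* was -2.24, -2.41 and -2.43 in libraries labelled *svp* RNAi, against -2.02, -2.12 and -2.30 in controls, and the groups overlapped (difference in log2 ratio -0.21, exact permutation p = 0.2, adjusted p = 0.6). *RpL24-like* supplied 13.5% to 18.1% of the sum with *RpL24*, and *RpLP0-like* 1.57% to 3.41% of the sum with *RpLP0*. In both cases the highest value was in *Luc* control RNAi replicate 1, and the groups overlapped (exact permutation p = 0.7 and 0.9).

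Introns of RP genes host many small nucleolar RNAs (snoRNAs), which guide the modification of ribosomal RNA. In the files' coordinates, 29 RP genes contained 72 annotated snoRNA genes, with 7 in *RpS7*. All 29 were among the genes tested. Their median log2 fold change was 0.19, against 0.15 for the 56 RP genes tested that contain none, and this difference was not tested.

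No other translation gene examined had an adjusted p under 0.05 by edgeR or DESeq2. None of 72 mitochondrial ribosomal protein genes tested was called by edgeR or DESeq2, with 0 at an unadjusted p under 0.05, and their median log2 fold change was 0.01. Their median level was 19.3 FPKM. Elongation factors, which bring transfer RNAs and move the ribosome along, were as abundant as RP genes in several cases (*Ef1alpha48D*: 4353, 3788 and 4112 FPKM with the *svp* RNAi label, against 4421, 3506 and 3786 FPKM in controls). Of 7 elongation factors tested, 0 were called by edgeR or DESeq2 and 0 had an unadjusted p under 0.05, and their median log2 fold change was 0.06 (-0.029 without *Luc* control RNAi replicate 1 and 0.19 without *Luc* control RNAi replicate 2). Of 27 initiation factors, which place the ribosome on the start codon, 0 were called by either tool, and the median log2 fold change was 0.02. Of these 27, 1 had an unadjusted edgeR p under 0.05, where 4.99% of all genes tested did. It was *eIF-4B*, a cofactor of the helicase eIF4A (log2 fold change 0.89, SE 0.28, adjusted p = 0.71 by edgeR). Its groups overlapped, with 10.4, 6.38 and 12.9 FPKM in libraries labelled *svp* RNAi, against 8.18, 3.97 and 4.05 FPKM in controls.

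Factors that assemble ribosomes included no called gene either. Nor did a list of regulators of RP genes or of translation, which also held the ribosome-bound *Rack1*. Of 20 ribosome assembly genes and 12 regulators tested, 0 were called by edgeR or DESeq2 and 0 had an unadjusted p under 0.05, with median log2 fold changes of 0.04 and 0.05. Among assembly genes, *nop5*, a core protein of box C/D snoRNA particles, had the highest log2 fold change (0.38, SE 0.33). *Thor*, which encodes the translation repressor 4E-BP, had 596, 598 and 654 FPKM in libraries labelled *svp* RNAi, against 351, 489 and 418 FPKM in controls. These groups did not overlap in FPKM, but the log2 fold change of 0.44 (SE 0.33) had an adjusted p of 1.00 by edgeR. *Rack1*, a scaffold protein bound to the small subunit, had 1123, 1070 and 1173 FPKM with the *svp* RNAi label, against 942, 824 and 888 FPKM in controls, at a level and with a log2 fold change (0.28, SE 0.27) like those of RP genes.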

How the data were processed

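RNA of fat body cells was sequenced for the study by a company (Novogene) as paired 150-base reads on an Illumina NovaSeq6000. Per the study's methods, reads were aligned to the Ensembl *D. melanogaster* reference with TopHat and counted per gene with HTSeq. Versions, strand setting and handling of multiply mapped reads are not given in the sources used here. The deposited counts are whole numbers without normalization. The deposited FPKM values were made for the study from these counts, each library's total and a gene length. Coordinates of 86 of the 93 RP genes equal those in the BDGP6 annotation used here. No sequence was used.

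Counts were tested with edgeR 4.0.16 in R 4.3.3 (TMM, filterByExpr, quasi-likelihood test, Benjamini-Hochberg adjustment over 9277 genes, threshold 0.05), after a check on simulated data. The replicates of each group were independent experiments, per the study's methods. Differences in library shares and paralog ratios (log2 of FPKM + 0.1) were compared by two-sided exact permutation. Alternatives were DESeq2 1.42.0, limma 3.58.1 on log2(FPKM + 0.1) or log2(FPKM + 1), other scalings, filters and denominators, the replicate number as a block and leaving out each library. Library totals without TMM, the ratio to the median RP gene and the other scales for non-overlap were chosen after seeing the data.

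The RP genes and the lists were chosen with earlier results of these data known. Named are the 5 highest and 5 lowest RP genes by mean FPKM and by fold change, genes of tested pairs, genes without overlap in CPM, a set of well-studied RP genes such as *RpL32*, and every gene not tested, except that 4 of the RP genes tested are not reported singly here. Counts and medians include them. *RpS3*, *RpL17*, *RpS7*, *RpS3A*, the genes without overlap in the ratio to the median RP gene and the genes named from other lists were chosen after their values were seen. Oenocyte and hemocyte markers had median log2 fold changes of -0.12 and -0.14, fat body markers -0.25, germline 0.22, midgut -0.95 and muscle -0.62.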

Additional observations from a re-analysis of the deposited data

How the results depend on the processing

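The count of RP genes called was 0 under every alternative run, and so were the counts for the other translation lists. The RP median log2 fold change was above 0 in each of these, except without *Luc* control RNAi replicate 1 (range over the fits without 1 library, -0.02 to 0.34). It was 0.25 by limma on log2(FPKM + 1). Whether replicate numbers pair the libraries is not given in the sources used here. Deviations from group means correlated at 0.54, 0.59 and -0.32 for the same numbers, which with so few libraries cannot settle it. With the replicate block, 0 RP genes were called, the RP median was 0.21, and the medians were 0.02 for mitochondrial ribosomal proteins, 0.07 for elongation factors, 0.04 for initiation factors, 0.10 for ribosome assembly and 0.11 for regulators. Calls over all genes numbered 9 with all libraries, 27 with the block, 144 of the same genes by DESeq2, 25 without a filter on low counts, 55 by limma on log2(FPKM + 1), 30 on library totals and 61 without *Luc* control RNAi replicate 1.

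Over the fits that left out 1 library, the median of mitochondrial ribosomal proteins ranged from -0.11 to 0.12 that of ribosome assembly from -0.074 to 0.32, that of elongation factors from -0.029 to 0.19 and that of initiation factors from 0.0023 to 0.082. Log2 fold changes ranged from -0.10 to 0.19 for *RpS19a*, -0.11 to 0.23 for *RpS20*, -0.15 to 0.27 for *RpS25*, -0.11 to 0.14 for *RpL34a* and -0.077 to 0.31 for *RpL32*. Differences in log2 ratio ranged from -0.19 to 0.055 for *RpL24-like*/*RpL24*, -0.35 to 0.22 for *RpLP0-like*/*RpLP0* and -0.020 to 0.030 for *RpS15Aa*/*RpS15Ab*. The cause was not tested. With 3 libraries per group and a typical standard error of 0.32 on the log2 scale, differences as small as those of the RP genes were not detectable.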
